A study of Rattus norvegicus with 8 samples.

Results

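The liver of rats given lavender oil (LO, from *Lavandula angustifolia*) was compared with the liver of control rats on 4 of the 8 arrays of the series, which form 2 pairs called pool 1 and pool 2. On every array a pooled control RNA and a pooled LO RNA were hybridized together, with LO in Cy5 on array 1 of a pair and in Cy3 on array 2. The male rats, 7 weeks old and 6 in each group, received 10% ethanol (the diluent, control) or LO at 5 mg/kg in the same diluent into the stomach once daily over 13 days, with dissection under ether on day 14. The growth protocol names F334 rats, whereas the strain label of the arrays reads Wistar. Liver was taken as a pair of small blocks from the whole organ. Neither the labels nor the methods say how pool 1 and pool 2 differ, or which rats each holds. The members described here are the features well above background in both dyes on all 4 liver arrays, which were 17578 of 43379 non-control features. They represent 16335 probes, of which 16330 had values after 133 flagged features were left out. A gene symbol could be given to 6026 of these probes, for 4917 genes.

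The liver receives an oral dose from the gut through the portal vein. Lipid-sensing nuclear receptors are among its best known regulators: PPAR alpha turns on the cytochromes of the Cyp4a family, which hydroxylate fatty acids, and the hormone gene *Fgf21*. Adult hepatocytes rarely divide, so that transcripts of mitosis are low in a resting liver. Several liver cytochromes differ between the sexes under the pattern of growth hormone release, and *Cyp2c12*, a steroid hydroxylase, is the classical female form in the rat.

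The arrays carried liver RNA by their markers. All 10 hepatocyte marker genes were measured, and 9 of their 18 probes were among the 100 brightest of the members, with the *Tf* (transferrin) probe second. Their summed signal lay between 1824370 and 2188540 in control and between 1597950 and 2283220 in LO over the 4 arrays. The 9 Kupffer cell and macrophage genes that were measured summed to between 88085 and 99155 in control and between 81769 and 92759 in LO. No B cell marker was measured, and only 2 neutrophil genes were. In such bulk tissue, fewer cells of a type and less RNA per cell cannot be told apart.

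The change per probe was small beside the difference between the dyes. Across the 16330 probes, log2 LO/control on array 1 and array 2 of a pair correlated with r = -0.57 in pool 1 and -0.49 in pool 2, that is, probes brighter in Cy5 on array 1 tended to be brighter in Cy5 on array 2. The mean log2 Cy5/Cy3 of the 4 arrays had an SD of 0.21 over probes, whereas log2 LO/control, averaged within each pair and over both pools, had an SD of 0.094. Averaging a pair cancels the dye difference, so that each pool gave 1 value per probe and n was 2 throughout. Since nothing says that the pools came from separate animals, the SDs between pools and the p-values may measure technical spread only. The values of pool 1 and pool 2 correlated across probes with r = 0.19, as a description, since all 4 arrays share a slide. On the 14813 probes well above background on all 8 arrays of the series, this r was 0.18. There pool 1 correlated with spleen at 0.038 and with small intestine at 0.15, and pool 2 at 0.10 and -0.12. The r between the liver pools was thus close to that of pool 1 with small intestine. The errors hold no variation between single animals.

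At 1.5-fold in both pools, 3 probes were higher in LO (0.0184% of those tested) and 1 was lower (0.00612%), and no probe passed 1.5-fold in opposite directions. They were *Cyp2c12*, *Ccnb1* (cyclin B1, the partner of Cdk1 at entry into mitosis), *Fgf21* (a hepatic hormone of fasting and lipid use) and, as the lower one, *Cxcl1* (a chemokine that attracts neutrophils). A single pool gave more, with 22 probes past 1.5-fold in pool 1 (0.135%) and 25 in pool 2 (0.153%). In the limma test on the pool means, 1 probe rose (0.00612%) and 1 fell (0.00612%) at an adjusted p below 0.05, against 1343 probes with an unadjusted p below 0.05. In simulated data this test called more unchanged probes than its threshold allows, so that the adjusted p-values may be too small. No feature was well above background in one group on all 4 arrays and in the other on none.

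*Cyp2c12* rose from a signal of 803 in control to 1447 in LO on array 1 of pool 1, and from 840 to 1669 on array 2. In pool 2 it rose from 489 to 873 and from 478 to 905. Both dye orientations gave a similar ratio, with log2 values of 0.85, 0.99, 0.84 and 0.92 on the 4 arrays. The mean was 0.90 ± 0.030 (SD, n = 2 pools), a 1.86-fold rise with an adjusted p of 0.030 by limma. Single arrays were left out in another limma fit, with the arrays kept apart and a term for dye orientation. That fit gave an adjusted p of 0.017 on all 4 arrays. Leaving out a single array ended its call, with adjusted p of 0.064 without array 1 and 0.082 without array 2 of pool 1. In pool 2 these were 0.11 without array 1 and 0.065 without array 2. Within control and within LO, both signals of pool 1 lay above both of pool 2.

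*Cxcl1* fell on every array. Its signal was 243 in control and 133 in LO on array 1 of pool 1, 320 and 159 on array 2, 219 and 116 on array 1 of pool 2, and 208 and 89.7 on array 2. The control and LO signals did not overlap, and log2 LO/control averaged -1.004 ± 0.091 (SD, n = 2 pools), with an adjusted p of 0.030 by limma. Here and below, lack of overlap is a description only. The genes were chosen by these same values, both arrays of a pair hold the same RNA, and the share over all probes is not given. This call also ended without any one array, with adjusted p of 0.064 and 0.059 without array 1 and 2 of pool 1, and of 0.11 and 0.065 without array 1 and 2 of pool 2. With normexp background correction and loess from the raw signals the mean of *Cxcl1* was -0.58, short of 1.5-fold. The 150 bases before its start on GRCr8, chr14:17479322-17479471 on the minus strand, hold the letters GGGAATT, which open the classical NF-kappaB site. On either strand 2.04% of all 27457 promoters of this length hold them. They are in capitals in the sequence from RefSeq:

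Cxcl1: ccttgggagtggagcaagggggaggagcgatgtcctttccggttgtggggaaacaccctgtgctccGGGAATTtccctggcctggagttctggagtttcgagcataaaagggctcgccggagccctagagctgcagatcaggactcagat

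*Ccnb1* had signals of 202, 233, 229 and 211 in control and of 332, 352, 366 and 341 in LO on the 4 arrays. The groups did not overlap, and the log2 values of 0.72, 0.60, 0.68 and 0.70 were the most even among the 4 genes. The mean was 0.67 ± 0.019 (SD, n = 2 pools) with an adjusted p of 0.10 by limma. With the 4 arrays kept apart and a term for dye orientation (the replicate block) the adjusted p was 0.043, and with a single array left out it lay between 0.13 and 0.23. The block counts 4 arrays although both of a pair hold the same RNA. In simulated data it called more unchanged probes than the fit on pool means. The simulated arrays of a pair shared nearly all their error, a setting not estimated from the real arrays. That outcome was thus built in. *Fgf21* had signals of 124, 137, 159 and 149 in control and of 185, 218, 247 and 273 in LO. These lie below the median signal of the members (338 to 402 over arrays and dyes), as do all signals of *Cxcl1* and the control signals of *Ccnb1*. The *Fgf21* groups did not overlap. Its mean log2 was 0.69 ± 0.096 (SD, n = 2 pools) with an adjusted p of 0.12 by limma, and of 0.064 with the dye term. With normexp and loess the mean of *Ccnb1* was 0.44 and that of *Fgf21* 0.40, both short of 1.5-fold.

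**Figure D1:**
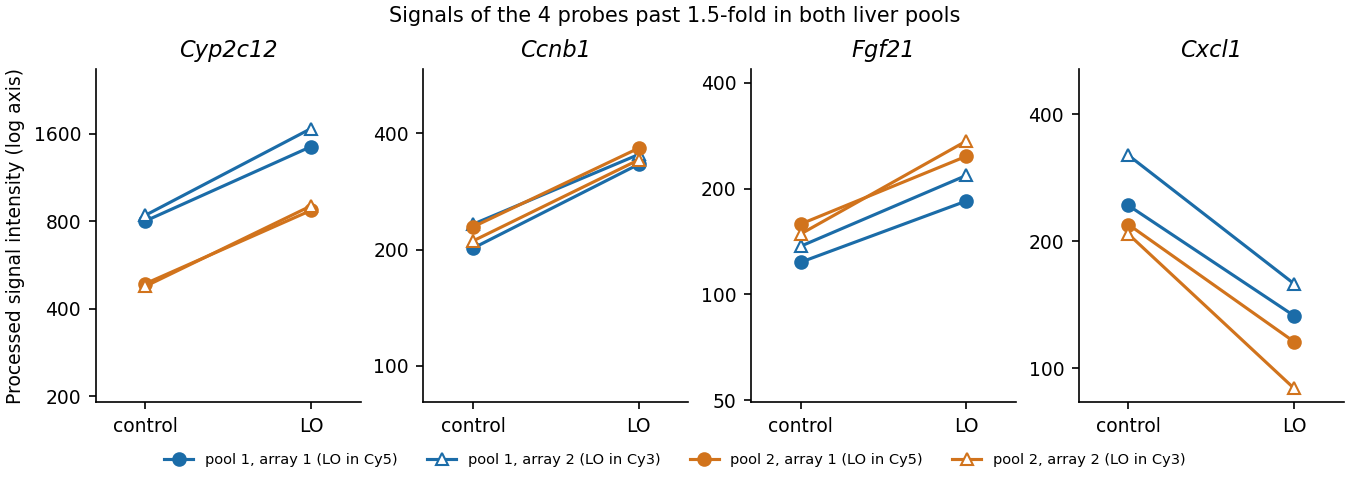
Processed signal intensity (log axis) in control and LO for the 4 probes past 1.5-fold in both pools. Each line joins both channels of an array, with filled circles for LO in Cy5 and open triangles for LO in Cy3. All 4 lines run the same way in each panel, and for *Cyp2c12* the control and the LO signals of pool 1 each lie above those of pool 2.

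A lower threshold, 1.2-fold in both pools (a log2 of 0.26), was met by 91 probes in the upward direction (0.557%) and by 37 downward (0.227%). Opposite changes of that size were seen for 15 probes, 4 up in pool 1 (0.0245%) and 11 up in pool 2 (0.0674%). Of the 91, 71 had the same sign on all 4 arrays, and of the 37, 27 did. Symbols were known for 46 and 17 of these probes. No 1.2-fold change apart from those of *Cyp2c12* and *Cxcl1* passed the limma test, so the following groups are described by counts and sizes.

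**Figure D2:**
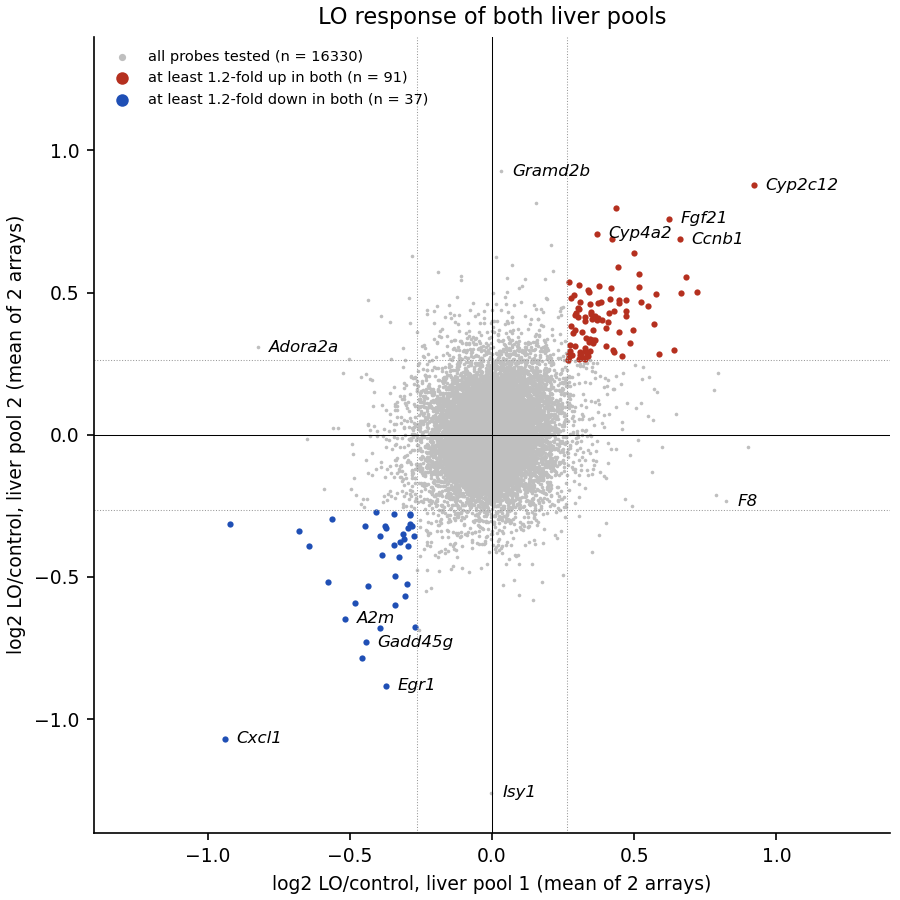
log2 LO/control of each of the 16330 probes in liver pool 1 (x axis) and pool 2 (y axis), each the mean of a dye-swap pair. Red and blue points are the 91 and 37 probes at least 1.2-fold up or down in both pools (dotted lines), and grey points away from the axes changed in a single pool only or in opposite directions.

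Transcripts of cell division formed the largest group. Of the 30 probes of the cell cycle list, 11 were at least 1.2-fold higher in both pools (36.7%, against 0.557% of all probes) and 0 were lower. These 11 probes belong to 9 of the 22 measured genes. The same sign on all 4 arrays was seen for 14 probes upward (4.61% of all probes) and 0 downward (4.15%). The median over genes was 0.20, at 0.24 in pool 1 and 0.21 in pool 2, against a median of -0.0016 over all probes tested.

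Most of the 9 genes act between the entry into mitosis and its end. *Ccnb2*, the second B-type cyclin, had log2 values of 0.33, 0.70, 0.17 and 0.96 on the 4 arrays and a mean of 0.54 ± 0.034 (SD, n = 2 pools). Its probe was dim, with signals of 46 to 120. *Ccna2* (cyclin A2, of S phase and G2) had 0.55, 0.34, 0.60 and 0.58. The kinase *Cdk1* had 0.32, 0.63, 0.27 and 0.56, and all 3 genes were above 0 on every array. *Plk1*, a kinase of the spindle poles, was measured by a pair of probes with means of 0.47 and 0.36. *Cdc20*, which activates the anaphase-promoting complex, had a mean of 0.39 with higher values in Cy5 (0.62 and 0.64) than in Cy3 (0.10 and 0.20). *Birc5* (survivin) had 0.76 and 1.05 with LO in Cy5 but 0.0028 and -0.11 with LO in Cy3, so that its mean of 0.43 rested on a single dye orientation.

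The genes of the G1 phase and of DNA synthesis gave a mixed picture. Both probes of *Ccnd1* (cyclin D1) were at least 1.2-fold higher in both pools, with means of 0.35 and 0.40. *Rrm2*, a subunit of ribonucleotide reductase, had a mean of 0.46 by one probe and of 0.13 by the other. *Pcna*, the sliding clamp of DNA replication, had means of -0.045 and 0.0079, *Tyms* (thymidylate synthase) 0.033 and *Mcm7*, of the replicative helicase, 0.047. The inhibitor *Cdkn1b* (p27) was at -0.11 and -0.035.

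The promoters of mitotic genes are known for CCAAT boxes followed by a cell cycle homology region, TTTGAA or a near form of it. Promoters of 4 genes of this group from RefSeq (GRCr8, the 150 bases before the start) are shown because these members moved together, with each CCAAT box and, on either strand, every TTTGAA or TTTAAA in capitals. They lie at chr2:33655226-33655375 (minus strand), chr8:79981659-79981808 (minus), chr20:19265143-19265292 (plus) and chr5:137255800-137255949 (minus):

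Ccnb1: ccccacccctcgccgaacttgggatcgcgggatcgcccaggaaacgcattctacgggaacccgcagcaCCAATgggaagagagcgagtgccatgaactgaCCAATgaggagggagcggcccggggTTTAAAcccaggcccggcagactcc

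Ccnb2: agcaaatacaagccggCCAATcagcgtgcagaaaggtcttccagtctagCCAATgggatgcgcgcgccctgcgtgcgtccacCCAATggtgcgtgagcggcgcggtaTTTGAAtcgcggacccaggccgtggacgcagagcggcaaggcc

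Cdk1: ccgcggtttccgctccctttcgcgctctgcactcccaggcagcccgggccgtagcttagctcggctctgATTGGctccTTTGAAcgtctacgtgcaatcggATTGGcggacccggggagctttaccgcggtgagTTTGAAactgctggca

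Cdc20: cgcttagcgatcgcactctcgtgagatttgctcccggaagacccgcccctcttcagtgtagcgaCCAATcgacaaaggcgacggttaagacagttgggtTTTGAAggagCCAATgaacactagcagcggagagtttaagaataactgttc

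Each of the 4 holds at least 2 CCAAT boxes, counted on both strands, and those of *Cdk1* lie on the opposite strand and read ATTGG here. A promoter was at hand for 6 of the 9 higher genes, and CCAAT together with TTTGAA or TTTAAA stood in 5 of them, in 2 of the 11 other measured cell cycle genes with a promoter, and in 4.04% of all promoters. No match in the 4 overlaps another. A gene with several starts counted once, and these matches describe letters and were not tested.

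All 22 cell cycle genes were also measured in spleen and small intestine, with 1 dye-swap pair each. In spleen 21 of the 22 were above 0, with a median of 0.22, beside 20 of 22 and 0.20 in liver, whereas in small intestine 7 were above 0 and the median was -0.026. The share of all probes above 0 is not given here for spleen or small intestine, so these counts lack a baseline. In spleen 16 of 17 genes of the acute phase and plasma protein list were above 0, and 6 of 22 of the cholesterol synthesis list. *Ccnb1* had 0.29 in spleen and -0.021 in small intestine, *Ccnb2* 0.40 and -0.053, and *Ccna2* 0.37 and 0.083. Among genes of DNA synthesis the order differed, since *Tyms* was at 0.28 in spleen. The contrast of liver against the mean of the other tissues gave 0 of 14813 probes at an adjusted p below 0.05 by limma (0%), 664 at an unadjusted p below 0.05, and a lowest adjusted p of 0.90 among cell cycle probes. The liver slide was scanned apart from the others, so that scan and tissue cannot be told apart in this contrast.

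**Figure D3:**
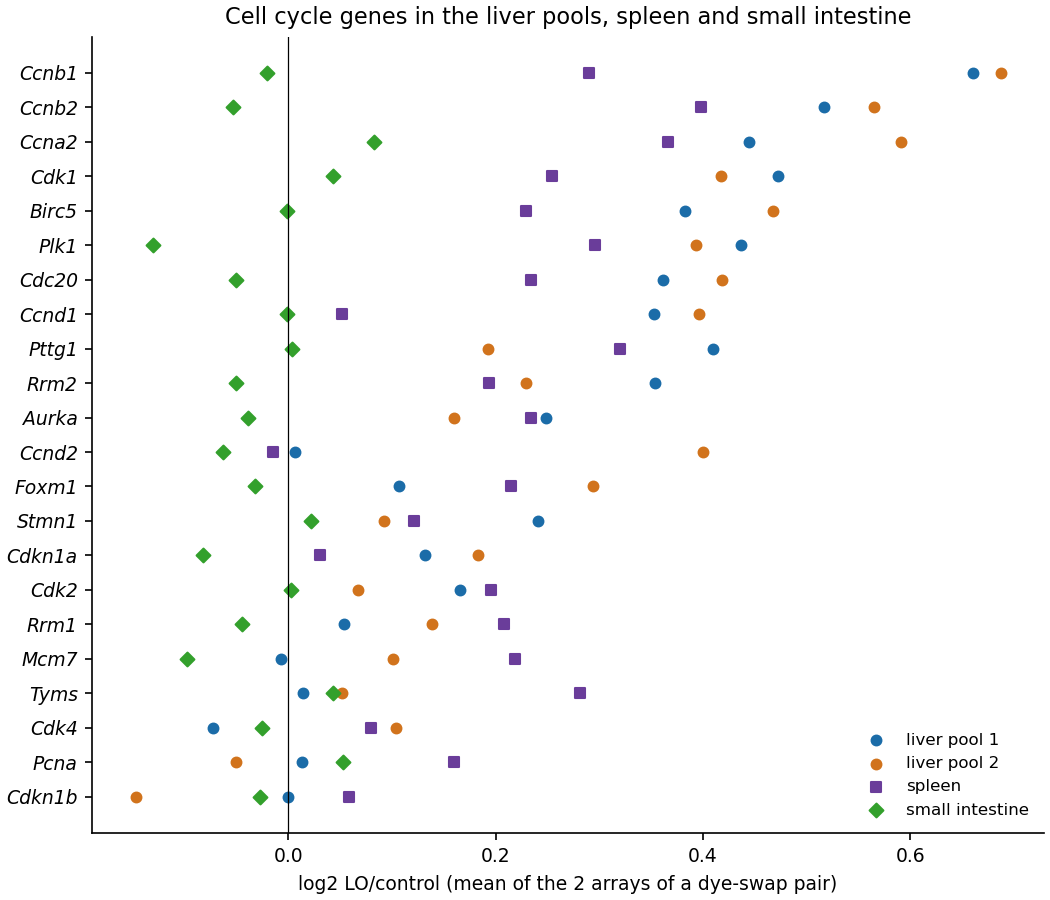
log2 LO/control of the 22 measured cell cycle genes (median of a gene's probes) in liver pool 1, liver pool 2, spleen and small intestine, each the mean of 2 arrays. The mitotic genes at the top have both liver values above 0.3 and small intestine values close to 0, with spleen in between.

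Targets of PPAR alpha were the next group. Of 46 probes for 36 genes, 5 were at least 1.2-fold higher in both pools (10.9%, against 0.557% of all probes) and 0 lower. On all 4 arrays 11 were above 0 (4.61% of all probes) and 1 was below 0 (4.15%). The median over genes was 0.092, at 0.062 in pool 1 and 0.11 in pool 2. Besides *Fgf21*, the higher probes were those of *Cyp4a8*, *Cyp4a2*, *Cyp4a3* and *Vnn1*. *Cyp4a8* went from signals of 26700 and 27266 in control to 32785 and 39892 in LO in pool 1, and from 22340 and 20933 to 34003 and 35805 in pool 2. Its groups did not overlap, and the mean log2 was 0.56 ± 0.19 (SD, n = 2 pools; adjusted p = 0.17 by limma).

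*Cyp4a2*, also listed as a male-predominant gene, had log2 values of 0.092, 0.65, 0.48 and 0.93. *Cyp4a3* had 0.29, 0.33, 0.50 and 0.56, higher in pool 2 than in pool 1 as for the other Cyp4a forms. The Cyp4a genes are close paralogs, and the probes may share target RNA. *Vnn1*, a pantetheinase, had 0.40, 0.37, 0.25 and 0.55. Several enzymes of beta-oxidation itself lay near 0. *Ehhadh*, a peroxisomal enzyme, had a mean of -0.030, the 3 probes of *Hadha* 0.023 to 0.063, and *Cpt1a*, the mitochondrial gatekeeper, 0.093. *Angptl4* (an inhibitor of lipoprotein lipase) and *Crat* (carnitine acetyltransferase) had 0.27 each, mostly from pool 2. *Crot* (carnitine octanoyltransferase), outside the list, was at least 1.2-fold higher in both pools, with 0.44, 0.17, 0.30 and 0.26. *Cd36*, a fatty acid transporter, was the one probe below 0 on all 4 arrays, with a mean of -0.17.

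The enzymes of cholesterol synthesis leaned one way with small sizes. Of 30 probes, 26 had a mean above 0, where the median over all probes tested was -0.0016. On all 4 arrays 10 were above 0 (against 4.61% of all probes) and 0 were below 0 (4.15%). The median over the 23 genes was 0.13, at 0.082 in pool 1 and 0.18 in pool 2. At least 1.2-fold higher in both pools were 2 of the 30 probes (6.67%, against 0.557% of all probes). They belong to *Sqle* (squalene epoxidase) and *Hmgcs1* (HMG-CoA synthase), each with a mean of 0.36. The second *Hmgcs1* probe had 0.36 in pool 1 and 0.25 in pool 2. *Msmo1*, a sterol oxidase, had 0.32 and 0.24. *Srebf2*, the regulator of the pathway, was at -0.0042. Fatty acid synthesis, which shares regulators of the same family, had 0 of 26 probes at 1.2-fold in both pools and a median of 0.017. Over all probes 0.784% passed in either direction, so that a count of 0 says little about so short a list.

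Immediate early and stress genes were the list with most probes below 0 on all 4 arrays. Of 33 probes, 3 were at least 1.2-fold lower in both pools (against 0.227% of all probes) and 1 was higher (0.557%). On all 4 arrays 9 were below 0 (4.15% of all probes) and 2 above 0 (4.61%). *Egr1*, a zinc finger factor induced by growth signals, had log2 values of -0.13, -0.62, -0.57 and -1.20 and a mean of -0.63 ± 0.36 (SD, n = 2 pools). This probe was printed many times, and its 8 copies that passed lay between -0.45 and -0.26 in pool 1 and between -0.99 and -0.80 in pool 2. The pools thus differed by more than the copies did. *Gadd45g*, a stress-induced regulator of growth arrest, had signals of 11482, 11458, 15635 and 13795 in control and of 8152, 8709, 9256 and 8478 in LO, which did not overlap. Its mean was -0.59 ± 0.20 (SD, n = 2 pools; adjusted p = 0.17 by limma).

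*Ier3*, an early response gene, had -0.32, -0.23, -0.36 and -0.35. *Myc* had -0.23 in pool 1 and -0.55 in pool 2, *Gadd45a* -0.21 and -0.54, *Dusp1* (a phosphatase of MAP kinases) -0.46 and -0.24, and *Dusp6* -0.25 and -0.43, all below 0 on every array. Other early genes lay near 0, with *Jun* at 0.041 and *Klf6* at -0.034 and -0.0041. *Ddit4*, an inhibitor of mTORC1, was at least 1.2-fold higher with 0.41 and 0.40. The median over the 27 genes was -0.049.

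**Figure D4:**
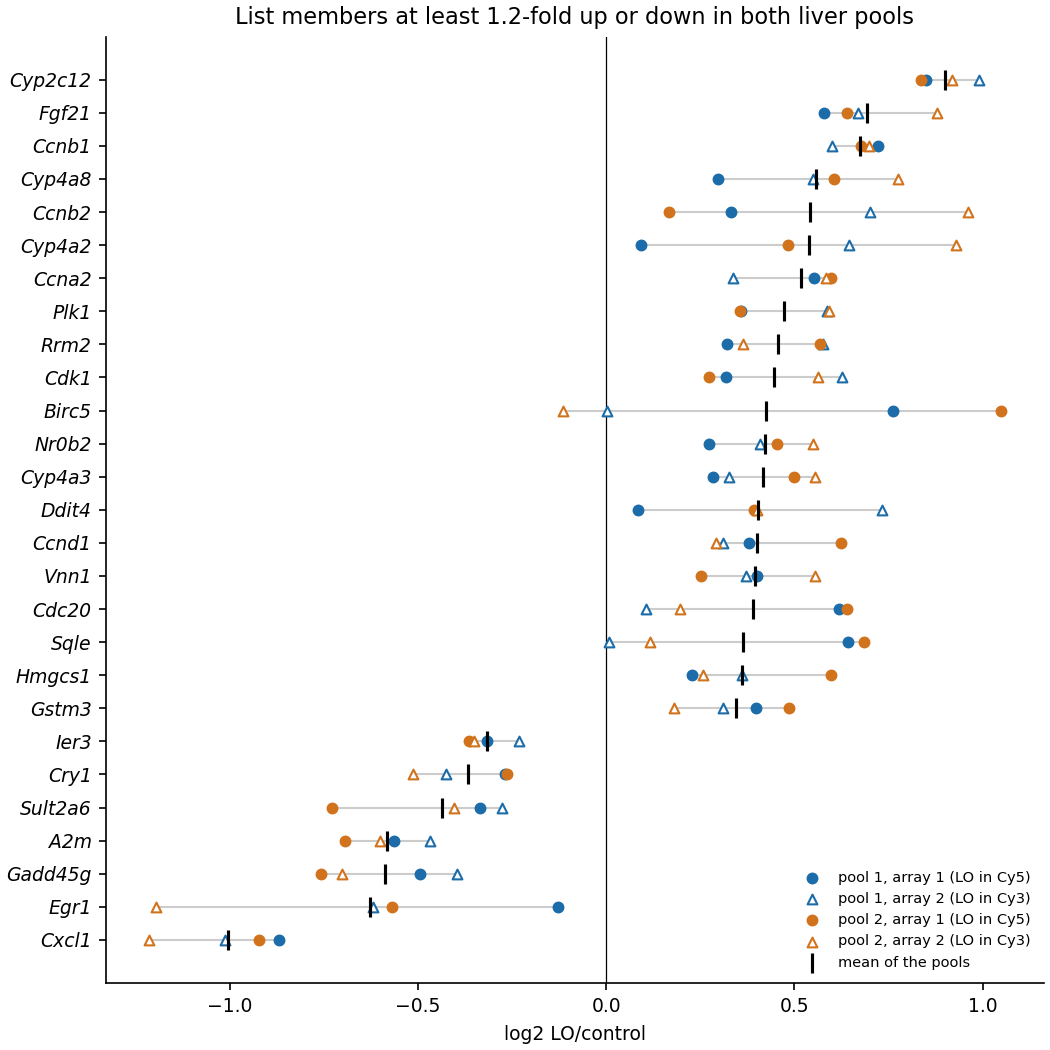
log2 LO/control on each of the 4 liver arrays for the 27 list members at least 1.2-fold up (20 genes) or down (7 genes) in both pools, 1 probe a gene. Circles have LO in Cy5 and triangles LO in Cy3. *Cxcl1* lies at -0.87 and -0.92 with LO in Cy5 and at -1.01 and -1.21 in Cy3, whereas *Birc5* lies at 0.76 and 1.05 in Cy5 and near 0 in Cy3.

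Other regulators showed single members. *Nr0b2* (SHP), a repressor of bile acid synthesis, had 0.27, 0.41, 0.45 and 0.55. It was the only higher probe of 28 in the bile acid list (against 0.557% of all probes), whose median was -0.033. *Cyp7a1*, the rate-limiting enzyme of that synthesis, had -0.37 in pool 1 and -0.043 in pool 2. In the circadian list, *Cry1*, a repressor of the clock, had -0.27, -0.42, -0.26 and -0.51. Of the 15 probes of the list, 13 had a mean below 0, where the median over all probes tested was -0.0016. *Dbp* was at -0.26 and *Per2* at -0.21, whereas *Bmal1* was at -0.021 and *Nr1d1* at -0.00066. LO was given around midday, and the labels give no hour of dissection.

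The drug-metabolizing enzymes of the liver had no more than single probes past the threshold in each list. Of the 27 probes of xenobiotic cytochromes, 0 were at 1.2-fold in both pools, against 0.784% of all probes in either direction. At that share a count of 0 says little about so short a list. Their median was -0.0078 over 23 genes. *Cyp1a2* had -0.34 and -0.42 in pool 1 but -0.034 and -0.065 in pool 2, and *Cyp3a9* had 0.13 and 0.39. Phase II enzymes and NRF2 targets had 1 higher probe of 44 (against 0.557% of all probes). It was that of *Gstm3* (a glutathione transferase), with 0.40, 0.31, 0.48 and 0.18. In the Cyp2c family 1 of 10 probes passed 1.2-fold in both pools, that of *Cyp2c12* (0.557% of all probes were higher). The 4 probes of *Cyp2c7*, also female-predominant, had means of 0.098 to 0.24, and the male forms *Cyp2c11* and *Cyp2c13* -0.034 and -0.060. *Sult2a6*, a steroid sulfotransferase of females, was at least 1.2-fold lower in both pools, with -0.34, -0.28, -0.73 and -0.40. Growth hormone, IGF and insulin signalling had 0 of 29 probes at 1.2-fold, against 0.784% of all probes in either direction. *Igfbp1* was at -0.28 and *Irs2* at -0.27 on average, both below 0 on all 4 arrays.

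The acute phase and plasma protein list of 55 probes had 1 probe past 1.2-fold, downward (against 0.227% of all probes). It was that of *A2m* (alpha-2-macroglobulin, the main acute phase protein of the rat). Its signals were 903, 904, 1111 and 987 in control and 611, 654, 687 and 651 in LO. They did not overlap, and the mean log2 was -0.58 ± 0.092 (SD, n = 2 pools; adjusted p = 0.13 by limma). The list's median was -0.039, and *Hp* (haptoglobin) had -0.16 and *Hamp* (hepcidin) 0.11. Of the 26 probes of the chemokine and cytokine list, that of *Cxcl1* stood alone at 1.2-fold (0.227% of all probes were lower). The cytokine gene *Il33*, also lower, lies outside the list and is given below. The *Il1b* probes had -0.24 and -0.21, *Il1rn* had -0.17, all below 0 on the 4 arrays, and *Icam1* had 0.23, above 0 on all 4. *Cxcl10* was at 0.28, with 0.76 and 0.93 where LO was in Cy5 and -0.17 and -0.41 where it was in Cy3.

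The marker genes of macrophages leaned below 0 beside these. Of the 11 Kupffer cell and macrophage probes, 10 had a mean below 0, where the median over all probes tested was -0.0016. On all 4 arrays 5 were below 0 (against 4.15%), and 0 passed 1.2-fold (0.784% of all probes did in either direction). The median over the 9 genes was -0.11, with *Vsig4* at -0.18, *Adgre1* at -0.15 and *C1qb* at -0.11, and *Lyz2* at 0.017. The 4 erythroid genes had a median of -0.10, the 10 hepatocyte genes of -0.032, the 8 stellate cell and fibroblast genes of -0.0066, and the 3 endothelial genes of -0.031. Each is smaller than the log2 of 1.2. The part of macrophage content in the values of *Cxcl1* and the *Il1b* probes was not tested.

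**Figure D5:**
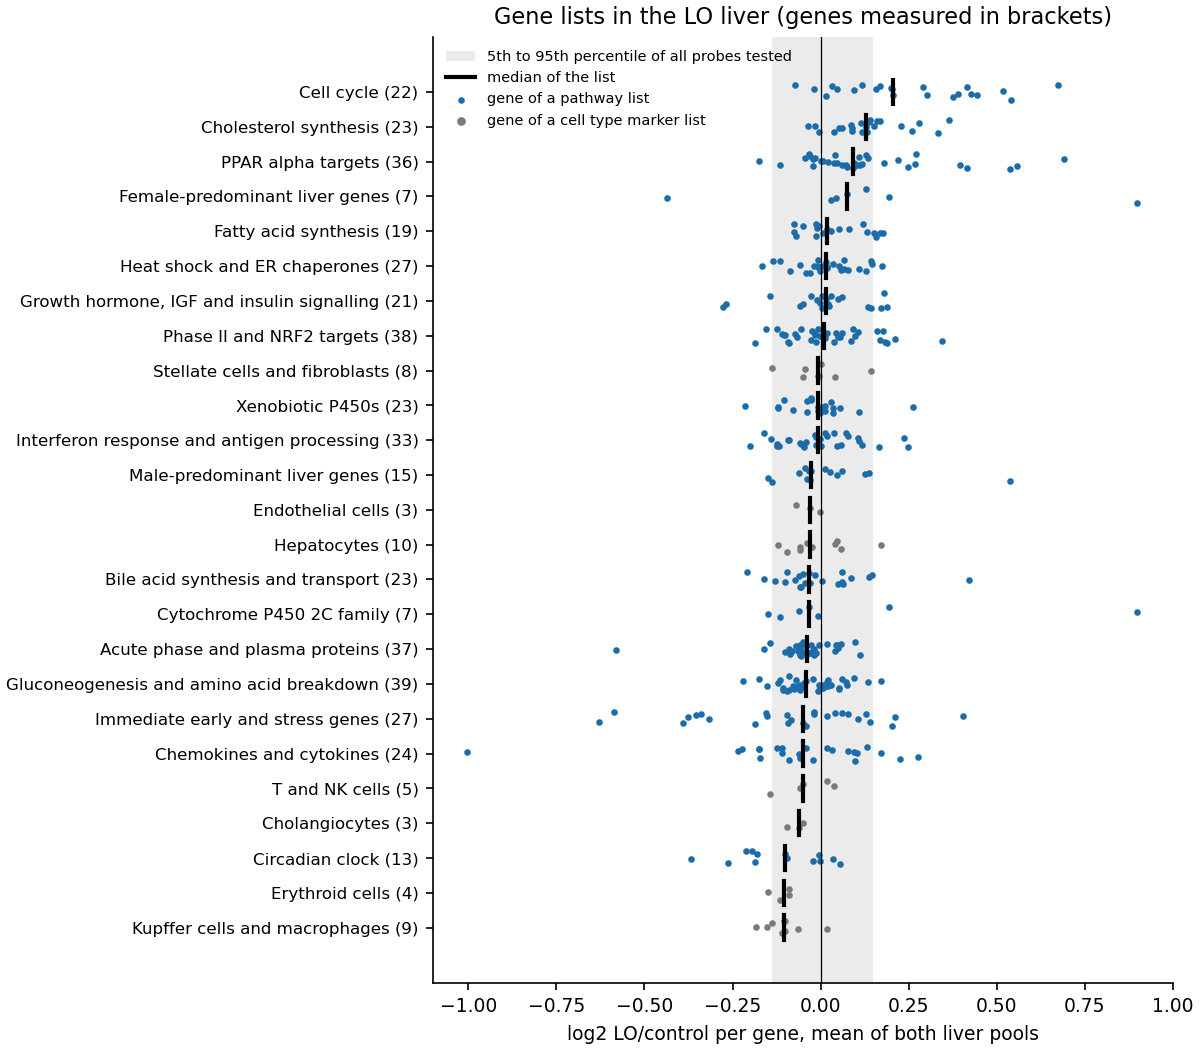
log2 LO/control per gene (median of its probes, mean of both liver pools) for the pathway lists (blue) and cell type marker lists (grey) with at least 3 genes measured, ordered by their median (black bar). The grey band spans the 5th to 95th percentile of all probes tested, -0.14 to 0.15. The cell cycle list has the highest median, 0.20, and the macrophage list the lowest, -0.11.

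The lists without a member at 1.2-fold in both pools were gluconeogenesis and amino acid breakdown (48 probes, median -0.043), interferon response and antigen processing (44 probes, -0.0087), and heat shock and ER chaperones (42 probes, 0.016), beside fatty acid synthesis, the xenobiotic cytochromes and growth hormone signalling. Over all probes, 0.784% were at 1.2-fold in both pools in either direction. The male-predominant list had only *Cyp4a2*, with a median of -0.027 over 15 genes. *Gapdh*, the reference gene, had -0.0016 in pool 1 and 0.13 in pool 2 by the probe printed 10 times, and -0.0093 and 0.11 by the other.

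Pool 1 and pool 2 were compared directly as well. By limma with a term for dye orientation, 0 probes differed between the pools at an adjusted p below 0.05 (0%), with 1530 at an unadjusted p below 0.05 and a lowest adjusted p of 0.49. The widest gap with a symbol was that of *Isy1*, a splicing factor, at -0.0033 in pool 1 and -1.26 in pool 2. On array 1 of pool 2 alone this probe read 42258 in control and 9077 in LO, against signals of 60.1 to 139 on the other arrays, and the second *Isy1* probe was at 0.0084 and 0.0032. *F8* (coagulation factor VIII) had 0.82 in pool 1 and -0.23 in pool 2, and *Adora2a* -0.82 and 0.31, while the *Adora2a* probe with 8 copies was at -0.051 and -0.046. *Gramd2b* had 0.031 and 0.93, with both arrays of pool 2 high, and *Mt1* (metallothionein) -0.52 and 0.22.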

How the data were processed

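Per the labels, RNA was labelled with a linear amplification kit and hybridized to a whole genome rat array. The authors extracted the images with Agilent Feature Extraction 11.0.1.1. The deposited log10 ratios of Cy5 over Cy3, after background subtraction and LOWESS within the array, were multiplied to log2 and turned to LO/control. The deposited signal intensity values (processed, linear) gave the levels. Median intensity values deposited before correction served the normexp alternative, and the deposited p-value of the software one of the fold alternatives. The file headers name rn4, so coordinates come only from RefSeq tables (GRCr8).

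Features were kept with both channels well above background on all 4 liver arrays, flagged ones left out and copies of a probe averaged. Arrays of a pair hold the same RNA and were averaged. limma 3.58.1 (R 4.3.3) tested 2 pool means per probe, with Benjamini-Hochberg adjustment and a threshold of 0.05. On simulated data it called more unchanged probes than that threshold allows. The fit on 4 arrays with the dye term called more still. There the simulated arrays of a pair shared nearly all their error, which was not estimated from the real arrays and fixed this order of the fits. The replicate number marks the dye orientation, which is the block. All 4 liver arrays lie on 1 slide. Between 44.3% and 48.9% of features were well above background per array, and the number of arrays limits the precision. Symbols came from RefSeq accessions, 16 through the lists of the study.

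The 18 pathway and 9 marker lists, the members and the rules were chosen with earlier results of these data known. Named were genes past 1.5-fold in both pools, past the adjusted p, up to 4 per list by size plus members past a call, *Gapdh*, and 5 genes per direction that differed most between the pools. Others were chosen after their values were seen. Alternatives were other backgrounds, filters, folds, thresholds and fits, and arrays or pools left out. Some genes of the lists that the naming rule covers are not reported here.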

Additional observations from a re-analysis of the deposited data

How the results depend on the processing

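The 4 probes past 1.5-fold in both pools stayed 3 up and 1 down with centred ratios, the value table or flags ignored, and so did the limma calls (1 up, 1 down). Normexp with an offset of 50 gave 1 and 0 past the fold (*Ccnb1*, *Fgf21* and *Cxcl1* fell short) but 181 and 90 limma calls. No filter gave 79 and 106 past the fold and 0 and 0 limma calls, and at least 1 bright channel on 2 arrays gave 31 and 22, and 0 and 0. The replicate block gave 2 up and 1 down, the 4 arrays with no replicate block 0 and 0 (406 at an unadjusted p below 0.05), and an adjusted p below 0.01 gave 0 and 0. The block changed no other call, with 0 probes also in the contrast of tissues.

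The fold counts were 15 and 7 in pool 1 alone, 14 and 11 in pool 2 alone, 91 and 37 at 1.2-fold, 0 and 0 at 2-fold, and 2 and 3 (1 with the software's P) at the study's cut-offs of 1.5 and 0.75 on each array. Without a single array or a dye orientation, the limma counts ranged from 0 to 1254 up and from 0 to 1046 down, and the fold counts from 3 to 97 up and from 2 to 138 down. The upper ends come from leaving out an orientation, where the dye difference no longer cancels: limma gave 874 up and 950 down, and the fold 64 up, without replicate 2 in both pools. Fits without single arrays used the arrays kept apart with the dye term, not pool means. They gave 0 up throughout and 1 down only without array 1 of pool 1, a probe other than that of *Cxcl1*. Over all these fits the adjusted p of *Cyp2c12* ranged from 4.6e-41 (normexp) to 0.85 and that of *Ccnb1* from 1.4e-13 to 0.85, the upper values with dim features kept.

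Of 324 values of the 27 named genes past 1.2-fold, 323 kept their sign. These genes were chosen for passing in both pools in the same direction, so values of a single pool could not turn. The count therefore gives no support for stability. *Birc5* turned to -0.055 without replicate 1 in both pools. In alternatives chosen after seeing the data, the cell cycle count of 11 probes was 8 to 11 without a single array. It was 6 with normexp, where 30 probes in all were higher. In a single pool it was 13, and could not fall below 11 there. Without an orientation it was 10 or 13, but there the dye difference no longer cancels and no share over all probes is given. With the same limits, the PPAR alpha count of 5 was 4 to 6 without a single array and 3 with normexp. It was 5 or 9 in a single pool, 7 or 10 without an orientation, and 11 by the same sign on all 4 arrays. These counts give no support for stability. The causes were not tested.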

Other observations

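Several genes outside the lists were at least 1.2-fold higher in both pools and were chosen after their values were seen. Both retinoic acid hydroxylases of the arrays were among them, with *Cyp26a1* at 0.43, 0.27, 0.59 and 0.26 on the 4 arrays and *Cyp26b1* at 1.01, 0.14, 0.93 and 0.056. *Cavin3*, a caveolae protein, had 0.45, 0.49, 0.44 and 0.43, similar in both orientations. *Gins4*, of the replicative helicase, had a mean of 0.45, and *Kifc1*, a spindle motor, 0.36. *Tsku* had 0.46, and *Gdf15*, a stress hormone, 0.39 with 0.0057 on the lowest array. *Axin2*, a feedback gene of Wnt signalling, had 0.94 and 1.13 with LO in Cy5 and -0.10 on both arrays with LO in Cy3. One probe of *Tnfrsf12a*, a receptor of the TNF family, had -0.029 and 0.094 with LO in Cy5 and 0.86 on both arrays with LO in Cy3. Its other probe, also at least 1.2-fold higher in both pools, had 0.11 and 0.19 with LO in Cy5 and 0.79 and 0.53 in Cy3.

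Among the lower genes outside the lists, *Foxa2*, a liver transcription factor, had -0.27, -0.41, -0.65 and -0.55. *Acmsd*, an enzyme of tryptophan breakdown, had -0.47, -0.31, -0.47 and -0.24, and *Il33*, an alarmin, -0.31, -0.31, -0.40 and -0.34. *Cited2* had a mean of -0.35, and *Car3* (carbonic anhydrase III) also -0.35, with -0.68 and -0.53 in Cy5 and -0.063 and -0.13 in Cy3. *Slc1a2*, a glutamate transporter, had -0.68 in pool 1 and -0.34 in pool 2. None passed the adjusted p by limma.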
